A study of Mus musculus with 12 samples.

Results

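The effect of starting ursolic acid (UA) before or after the onset of dextran sulfate sodium (DSS) colitis was examined by comparing the 3 colon libraries of the UA+DSS group with the 3 of the DSS+UA group, 6 of the 12 RNA-seq libraries of the series, across all genes. All 12 mice were male C57BL/6, 6 weeks old on arrival. In the UA+DSS group UA (200 mg/kg by gavage, once a day) began 1 day before 3% DSS was put in the drinking water for 5 days, and in the DSS+UA group it began 3 days after DSS was started. The Con group received neither DSS nor UA and the DSS group received DSS without UA, both with the vehicle. Dosing lasted 7 days in UA+DSS and 4 days in DSS+UA by the methods of the study (9 and 5 days by its discussion), so the start of UA and the number of doses cannot be told apart. RNA came from 3 of the 8 mice of each group. The segment of colon sampled was not given in the sources used here.

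DSS is a sulfated polysaccharide that injures the epithelium of the colon and lets bacteria reach the mucosa. UA is a plant triterpenoid. The colon is not uniform along its length. Its cells carry a memory of position in the Hox genes, transcription factors whose low-numbered paralogs are expressed further toward the head and whose high-numbered paralogs are expressed toward the tail, and many transporter, detoxification and immune genes have levels that differ between the caecal and the rectal end. A gene can therefore differ between mice of 2 groups because the tissue pieces came from different places, and Hoxb13 and Hoxd10 to Hoxd13 against Hoxb3 to Hoxb8 were used to follow that.

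The files held whole read counts, 15566216 to 18862254 per library in UA+DSS and 18284364 to 18570399 in DSS+UA. Levels are given below as CPM, counts scaled to a common library total (after TMM scaling), in the order of replicates 1, 2 and 3, and are compared within a gene only, since CPM does not correct for gene length. Log2 fold changes are UA+DSS minus DSS+UA with their standard error (SE), so that a positive value is higher with the early start, and adjusted p-values are from edgeR's quasi-likelihood test over all 17658 genes tested. A gene is called at an adjusted p under 0.05. In bulk tissue, fewer cells of a type and less RNA per cell cannot be told apart. Among the other libraries DSS 2 stood apart with neutrophil genes summing to 21619 CPM, and DSS 3 carried pancreatic genes at 18266 CPM. Neither is in the groups compared, but both entered the filter, the shared estimate of spread, the position slopes and the fit with the position score. Genes marking small intestine summed to 653 CPM in DSS+UA 3, against 109 to 292 CPM in the other 5 libraries compared, and haemoglobin genes to 184 CPM in UA+DSS 2, against 7.57 to 57 CPM in the other 5.

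The early and late starts differed in 2961 of the 17658 genes, 16.8% of those tested. UA+DSS was higher in 1332 (7.54%) and DSS+UA in 1629 (9.23%). In 2939 of the called genes every library of one group was above every library of the other, as in 45.3% of all genes tested. At least 2-fold differences made up 1582 of the calls, and among these the larger share, 968, was higher in UA+DSS and 614 in DSS+UA. At least 8-fold differences made up 266. In simulated data of the same size 73% of the genes changed by a log2 fold change of 2 were recovered, but only 7% of those changed by 1. Only 200 genes were changed in the simulation, far fewer than were called here, so the adjustment was stricter there. Its recovery does not carry over directly. The genes called here had a median absolute log2 fold change of 1.05. Of the alternative fits, DESeq2 called 4349 of 17658 genes and the 6 libraries alone 4284 of 16386. List counts from these fits therefore have a higher background than the main fit.

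Of called genes whose log2 CPM averaged 1 or more, those highest with the early start included a cytochrome P450 and a subunit of a bile acid exporter. Cyp2c55 (ENSMUSG00000025002, chr19:39007019-39042693), a cytochrome P450 of the large bowel, was at 1794, 3134 and 1251 CPM in UA+DSS against 8.27, 19.4 and 19.6 CPM in DSS+UA (log2 fold change 7.03 ± 1.35, adjusted p = 0.0107). Every early library was more than 10 times the highest late library. The lipid transporter Abca12 had 121, 119 and 56 CPM against 0, 0.124 and 0.277 (log2 fold change 9.47 ± 2.25, adjusted p = 0.0208). Slc51a, a subunit of the bile acid exporter of the epithelium, had 60.7, 159 and 43.9 against 0.0527, 0.124 and 2.22 CPM (log2 fold change 6.76 ± 1.90, adjusted p = 0.0365). The peptide neurotensin (Nts, 7.13), the glucuronosyltransferase Ugt2b5 (7.73), Malrd1 (5.75), the non-classical MHC gene H2-T3 (5.85), Gm36640 (6.83) and Hoxb8 (5.89) were also among the 10 highest. Of the 50-base stretches of the Ugt2b5 transcripts 41.7% occur in other genes, so its counts may hold reads of its relatives.

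Cyp2c55 and Hoxb8 kept their calls in every alternative without the position score that tested them and in each of 12 fits that left out 1 library, which is written below as a call that held throughout, though Hoxb8 was too low to be tested with at least 10 counts in every sample. Abca12, Slc51a, Nts, Ugt2b5, Malrd1, H2-T3 and Gm36640 each lost the call without 1 or more of Con 2, Con 3, DSS 3, the UA+DSS libraries or the DSS+UA libraries (adjusted p = 0.0501 to 0.129), and Abca12, Slc51a, Ugt2b5, Malrd1, H2-T3 and Gm36640 also with 1 or more of library size scaling, limma-voom or no filter. With the position score in the model, described below, the log2 fold changes of Cyp2c55 and Hoxb8 were 2.99 and 3.21, and those of the other genes named here turned negative. Hoxb8 is itself a gene of the score, so its value with the score is not independent of it.

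Genes highest with the late start included Hox genes of the tail end and keratin genes. Krt90 (ENSMUSG00000048699, chr15:101552356-101562950), a keratin, was at 45.1, 19.5 and 24.7 CPM in DSS+UA and at 0.577, 0.0625 and 0.266 CPM in UA+DSS (log2 fold change -6.61 ± 1.07, adjusted p = 0.0077). Slpi, the secretory leukocyte peptidase inhibitor, was at 263, 208 and 328 CPM against 12, 4.5 and 11.1 CPM (log2 fold change -4.85 ± 0.66, adjusted p = 0.00591). Tnfrsf8 (CD30) was at 37, 43.9 and 31.3 CPM against 1.28, 0.312 and 2.45 CPM (log2 fold change -4.77 ± 0.68, adjusted p = 0.00634). For each of these 3 genes the UA+DSS libraries were near the Con libraries and the DSS+UA libraries near the DSS libraries. For Krt90 Con ranged from 0 to 0.107 CPM and DSS from 20.9 to 203 CPM, and for Slpi from 7.82 to 9.1 and from 77.2 to 569 CPM. Hoxd13 (-10.87), Hoxb13 (-6.48), the proton pump Atp12a (-6.26), the transglutaminase Tgm3 (-6.24), the keratin Krt36 (-5.41), the pentraxin Mptx1 (-4.95) and AI854703 (-4.76) completed the 10. The calls of Krt90, Slpi, Tnfrsf8 and Krt36 held throughout, though Krt90, Tnfrsf8 and Krt36 were too low to be tested with at least 10 counts in every sample. That of Tgm3 was lost without UA+DSS 2 (adjusted p = 0.0506). Atp12a, Mptx1 and AI854703 each lost the call without 1 or more of the UA+DSS libraries or the DSS+UA libraries (adjusted p = 0.0528 to 0.124), and all of them also with 1 or more of library size scaling, limma-voom or no filter. With the position score Krt90, Slpi and Tnfrsf8 had log2 fold changes of -9.74, -4.24 and -2.60, and of the 10 AI854703 alone turned positive. Hoxd13 and Hoxb13 are themselves genes of the score.

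The 2 groups stood at opposite ends of the Hox position scale. The score subtracts the mean log2 CPM of Hoxb3 to Hoxb8 from that of the 5 caudal genes. It was -4.88, -5.70 and -4.16 in UA+DSS and 4.11, 4.47 and 5.06 in DSS+UA. The means were -4.91 ± 0.77 and 4.55 ± 0.48 (SD, n = 3), a difference of -9.46 (exact permutation test, two-sided, p = 0.1, the smallest that 3 against 3 libraries allow). No library of one group came near the other. The Con libraries were spread widely, at 5.53, -3.03 and -1.83, and DSS stood between the 2 groups, at 3.10, 1.35 and 0.37. No Con or DSS library had a score as low as any UA+DSS library.

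**Figure D1:**
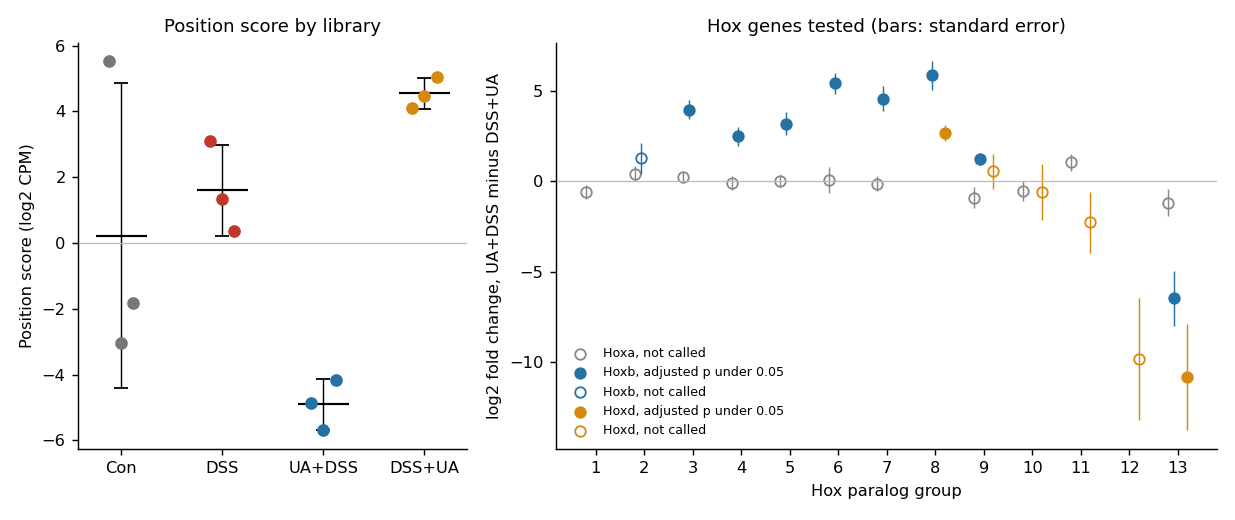
Left, position score (log2 CPM) of the 12 libraries by group, with the mean (line) and SD (bar): UA+DSS lies between -5.70 and -4.16 and DSS+UA between 4.11 and 5.06. Right, log2 fold change of each tested Hox gene with its standard error against its paralog group, filled where called: Hoxb3 to Hoxb9 and Hoxd8 lie above 0 and Hoxb13 and Hoxd13 below.

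Hoxb13 (ENSMUSG00000049604, chr11:96194316-96197447) was at 0.385, 0.0625 and 13.2 CPM in UA+DSS against 329, 478 and 433 CPM in DSS+UA (log2 fold change -6.48 ± 1.51, adjusted p = 0.0196). Hoxd13 (ENSMUSG00000001819, chr2:74668310-74671599) had 3 counts over all UA+DSS libraries and 6677 over DSS+UA, a ratio of 2109 (95% interval 721 to 10229, counting error only), with an adjusted p of 0.0319. Hoxd12 had no count in UA+DSS and 338 in DSS+UA, at least 107-fold lower when 3 counts over the UA+DSS group are taken as the floor, but was not called (adjusted p = 0.0788). Hoxd11 (-2.27) and Hoxd10 (-0.59) were not called either, and Hoxd10 overlapped between the groups. Of the 5 caudal genes 4, all but Hoxd10, thus had libraries that did not overlap between the groups, while only Hoxb13 and Hoxd13 were called.

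At the other end all 6 of Hoxb3 to Hoxb8 were higher in UA+DSS. Hoxb6 (ENSMUSG00000000690, chr11:96292476-96301569) was at 56.8, 91.1 and 33.2 CPM in UA+DSS against 1.69, 0.742 and 1.66 CPM in DSS+UA (log2 fold change 5.45 ± 0.59, adjusted p = 0.00525). Hoxb8 was at 26.3, 42.9 and 14.8 against 0.474, 0.247 and 0.665 CPM (log2 fold change 5.89 ± 0.79, adjusted p = 0.00591). The Con libraries held 3.26, 10.4 and 6.36 CPM of Hoxb6, so the early libraries were above every Con library, including the 2 Con libraries with a score below 0. Log2 fold changes of Hoxb3, Hoxb4, Hoxb5 and Hoxb7 were 3.99, 2.51, 3.20 and 4.59. Of the 15 other Hox genes tested only Hoxd8 and Hoxb9 were called, both higher in UA+DSS (background 7.54%). With log2 fold change and SE, then adjusted p, Hoxd8 was at 2.67 ± 0.45, 0.0077 and Hoxb9 at 1.24 ± 0.33, 0.0289. Exons of a gene on the opposite strand cover 37.4% of the exonic bases of Hoxb3, and how reads were assigned by strand was not given in the sources used here. The calls of Hoxb3, Hoxb6, Hoxb7 and Hoxd8 held throughout, though Hoxb3 was too low to be tested with at least 10 counts in every sample. Those of Hoxb4 and Hoxb5 were lost without UA+DSS 2 or DSS+UA 3 (adjusted p = 0.0502 to 0.0572). Hoxb13, Hoxd13 and Hoxb9 each lost the call without 1 or more of the UA+DSS libraries or the DSS+UA libraries (adjusted p = 0.0523 to 0.12), and Hoxb13 and Hoxd13 also with 1 or more of limma-voom or no filter.

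Among the other regional transcription factors Osr2 shared the pattern of Hoxb6, with early libraries above Con as well as above the late ones. Osr2, a zinc finger factor, was at 72.7, 135 and 45 CPM in UA+DSS, at 0.79, 0.495 and 0.166 CPM in DSS+UA and at 0.207, 0.499 and 0.16 CPM in Con (log2 fold change 7.42 ± 0.80, adjusted p = 0.00525). Tbx3 was at 34.3, 45.5 and 20.7 against 8.64, 5.01 and 6.93 CPM (log2 fold change 2.28 ± 0.38, adjusted p = 0.0077). Of 19 factors on the list 3 were called higher in UA+DSS (background 7.54%). The 1 called higher in DSS+UA (background 9.23%) was Pitx1 (-1.41 ± 0.31, 0.0144), named after its values were seen. The intestinal factor Cdx2 was at 321, 321 and 318 CPM against 67, 108 and 47.9 CPM without passing the test (adjusted p = 0.0596), and Cdx1 at 352, 382 and 394 against 517, 606 and 549 CPM. Of 5 genes of the distal colon DSS+UA was higher in Atp12a and Insl5 (background 9.23%). Insl5, a hormone of the enteroendocrine cells of the distal colon, was lower in UA+DSS, at 9.49, 1.5 and 20.7 against 104, 113 and 125 CPM (log2 fold change -3.42 ± 0.82, adjusted p = 0.0217). Fxyd4, a regulator of the sodium pump, had 1 count over UA+DSS and 1584 over DSS+UA, a ratio of 1501 (95% interval 269 to 59319, counting error only), and was not called (adjusted p = 0.0556). The calls of Osr2 and Tbx3 held throughout, though Osr2 was too low to be tested with at least 10 counts in every sample. That of Pitx1 was lost without UA+DSS 2 or DSS+UA 3 (adjusted p = 0.0518 to 0.0672). Insl5 lost the call without UA+DSS 1, UA+DSS 2 or DSS+UA 3 (adjusted p = 0.0545 to 0.0744) or with no filter.

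How far the called genes varied with position was measured in the 6 libraries outside the comparison. For each gene a slope on the score was fitted over Con and DSS with the group as a term. Without the 11 score genes, 2280 of 2953 called genes (77.2%) had a slope with the sign that the difference between the groups would have if position alone moved them, against 62.3% of the 17647 tested. The share was 75.1% with the slopes of Con alone and 78.9% with those of DSS alone, and 72.8% to 81.2% without any 1 of these libraries. Across the called genes the difference and the slope, signed by the direction of the score, had a Pearson correlation of 0.72 (0.48 across all tested), and of 0.46 without Con 1. Genes are not independent replicates, and Con 1 holds much of the spread in the score.

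**Figure D2:**
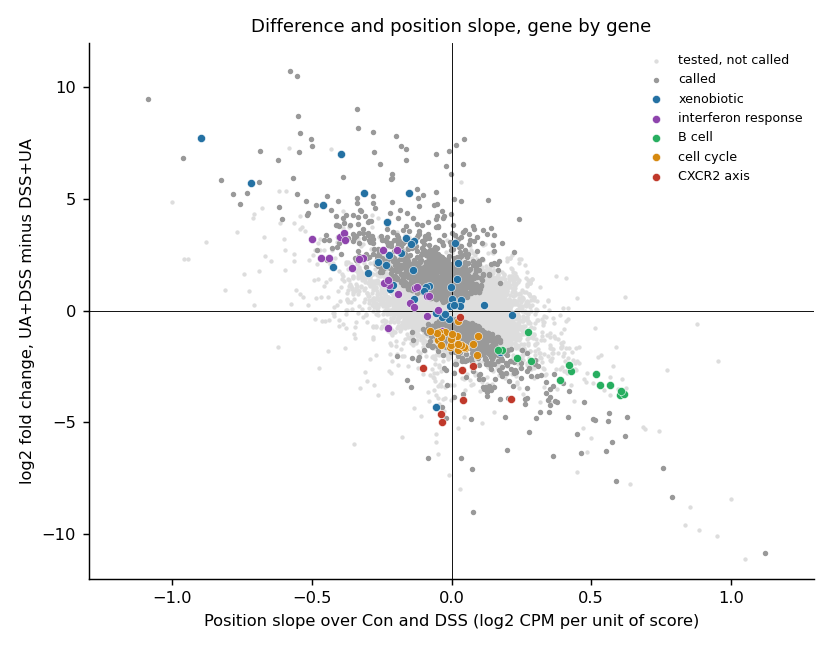
Each point is 1 gene, with its position slope over Con and DSS (log2 CPM per unit of score) on the x axis and its log2 fold change between UA+DSS and DSS+UA on the y axis. B cell genes (median slope 0.42) and interferon genes (-0.23) lie along the falling diagonal, and cell cycle genes (0.010) lie below 0 near a slope of 0.

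With the score added to the model as a covariate edgeR called 0 of 17658 genes, with 2250 at an unadjusted p under 0.05 and a smallest adjusted p of 0.163. Since the scores of the 2 groups do not overlap, position and the timing of UA cannot be told apart in these 6 libraries. The covariate rests on the spread within Con and DSS, much of it held by Con 1. Without Con 1 only 171 genes had an unadjusted p under 0.05 with the score, so values with the score lean on that library. The difference itself shrank less than the number of calls: the median absolute log2 fold change of the called genes was 1.05 without the score and 0.62 with it, and 2712 of 2961 kept their sign. Of the called genes 718 had an unadjusted p under 0.05 with the score. Most lists of genes below are therefore also given with their median difference with the score.

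The 6 other libraries also showed on which side untreated and DSS tissue lay, described here without a test after the values were seen. All 3 Con libraries were nearer the UA+DSS mean in 52.5% of the called genes (38.8% of all tested), and nearer the DSS+UA mean in 5.0% (11.3%). Con 1 was on the DSS+UA side with Con 2 and Con 3 on the UA+DSS side in 30.3% (21% of all tested), the order of their position scores. In 21.1% of the called genes all 3 Con libraries were on the UA+DSS side and all 3 DSS libraries on the DSS+UA side, against 14.5% of all tested.

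Genes of the cell cycle were higher with the late start. DSS+UA was higher in 20 of the 22 genes tested (background 9.23%), and in none was UA+DSS higher, with a median log2 fold change of -1.39. Over all genes the median was 0.014. Ccnb2 (ENSMUSG00000032218, chr9:70407692-70421547), cyclin B2 of the G2/M transition, was at 29.1, 17.9 and 34.4 CPM in UA+DSS against 90.3, 73.4 and 96.7 CPM in DSS+UA (log2 fold change -1.68 ± 0.24, adjusted p = 0.00591), with Con at 62.6, 53.6 and 45.3 and DSS at 63.4, 49.2 and 50.4 CPM. The mitotic kinase Aurka was at 17.1, 11.6 and 18 against 61, 35.8 and 48.6 CPM (log2 fold change -1.64 ± 0.24, adjusted p = 0.00634). Cdk1, the kinase bound by B-type cyclins, was at 37.5, 17.2 and 36.2 against 99.7, 76.6 and 85.4 CPM (log2 fold change -1.53 ± 0.26, adjusted p = 0.0077). For Ccnb2 and Cdk1 all 3 Con libraries lay between the groups, above every early and below every late library.

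Other members of the list were higher in DSS+UA as well. Tyms, which makes thymidylate for DNA synthesis, was at 37.6, 25.3 and 34 CPM in UA+DSS, at 72.1, 65.8 and 76.6 CPM in DSS+UA and at 37.6, 36.9 and 31.3 CPM in Con (log2 fold change -1.15 ± 0.17, adjusted p = 0.00644). Topoisomerase Top2a was at 128, 54.9 and 124 against 239, 159 and 244 CPM (log2 fold change -1.06 ± 0.31, adjusted p = 0.0377). Ccnb1 was at 31.9, 16.9 and 35.7 against 99.5, 62.7 and 94.7 CPM (log2 fold change -1.60 ± 0.27, adjusted p = 0.0077). The largest difference of the list was in Birc5 (survivin, -1.96), and the helicase subunit Mcm5 (-1.29) and the anaphase activator Cdc20 (-1.64) were called too. These 3 were named after their values were seen. Not called were Plk1 (-0.46), likewise named afterwards, and Mki67, at 164, 79.9 and 172 against 443, 148 and 329 CPM (adjusted p = 0.0743). In the libraries outside the comparison the cell cycle list had a median position slope of 0.010, and with the score all 22 members kept their sign at a median log2 fold change of -1.21, though none was called. Leaving out 1 library left 10 to 21 members higher in DSS+UA, the fewest without UA+DSS 2. The calls of Ccnb2, Aurka, Cdk1, Tyms and Ccnb1 held throughout. Top2a lost the call without Con 2, any UA+DSS library, DSS+UA 1 or DSS+UA 3 (adjusted p = 0.052 to 0.111) or with library size scaling or the 6 libraries alone. B cell genes, whose germinal centres divide, summed to 77.8, 51 and 100.2 CPM in UA+DSS against 539.6, 126 and 305 CPM in DSS+UA, and their part in the cell cycle result was not tested.

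The promoters of these genes are shown because 20 members moved together. Many G2/M promoters hold CCAAT boxes, bound by NF-Y, and a TTTGAA element, bound by repressor complexes in resting cells. The last 150 bases before the start of 3 of them, from RefSeq on GRCm38.p6 and read 5′ to 3′ on the strand of the gene, are given with CCAAT or TTTGAA on either strand in capitals (ATTGG is CCAAT on the other strand).
Ccnb2, chr9:70421555-70421704, reverse strand: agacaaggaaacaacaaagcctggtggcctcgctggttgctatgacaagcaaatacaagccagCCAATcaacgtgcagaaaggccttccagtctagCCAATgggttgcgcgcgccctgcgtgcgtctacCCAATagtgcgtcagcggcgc
Cdc20, chr4:118437344-118437493, reverse strand: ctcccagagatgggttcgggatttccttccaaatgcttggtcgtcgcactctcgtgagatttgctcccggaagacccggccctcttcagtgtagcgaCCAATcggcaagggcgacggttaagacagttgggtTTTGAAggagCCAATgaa
Cdk1, chr10:69352913-69353062, reverse strand: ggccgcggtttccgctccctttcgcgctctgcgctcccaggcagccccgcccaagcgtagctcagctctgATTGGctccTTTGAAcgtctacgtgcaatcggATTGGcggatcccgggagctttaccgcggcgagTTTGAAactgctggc

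Ccnb2 held 3 CCAAT boxes and no TTTGAA in this stretch, and Cdk1 both motifs, each more than once. Promoters of 300 bases (250 before the start) were found for 19 of the 22 cell cycle genes, 1 each. CCAAT occurred in 78.9% of them, against 36.9% of the 15709 promoters of tested genes, and TTTGAA in 42.1% against 12.7%. In promoters of all genes called higher in DSS+UA the shares were 44.0% and 15.3%, and in those higher in UA+DSS 33.4% and 12.4%. TTTGAA was as common in the promoters of the xenobiotic genes below, 42.9%, which went the other way. CAATAAA, a motif of posterior Hox proteins, occurred in 2.31% of promoters of genes higher in UA+DSS, 3.31% of those higher in DSS+UA and 2.71% of all. CCAAT and TTTGAA were added after the values were seen; CCAAT and CAATAAA can overlap, CCAAT and TTTGAA can share only end bases, and a match is not a binding site.

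Called genes of the fetal-like repair and squamous lists were all higher with the late start. Of 16 genes of fetal-like repair DSS+UA was higher in 3 (background 9.23%) and UA+DSS in none (median -0.99, -1.15 with the score). Ly6a (Sca-1), a marker of the repairing crypt, was at 545, 384 and 433 CPM in UA+DSS against 1008, 1964 and 1233 CPM in DSS+UA, with Con at 231, 426 and 366 CPM (log2 fold change -1.63 ± 0.32, adjusted p = 0.0108). Anxa1, annexin A1, was at 149.9, 110.1 and 258 against 649.6, 598 and 640.01 CPM, with Con at 220.2, 232 and 201 CPM (log2 fold change -1.87 ± 0.40, adjusted p = 0.0138). In both genes the early libraries overlapped the Con libraries and the late ones were above every Con library. The mesothelin gene Msln was at 0.642, 0.75 and 1.44 against 12.5, 5.44 and 12.3 CPM (log2 fold change -3.40 ± 0.91, adjusted p = 0.0303).

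The keratin Krt13 of squamous epithelium was at 0.577, 0.125 and 1.38 CPM in UA+DSS against 15.1, 3.28 and 23.8 CPM in DSS+UA (log2 fold change -4.30 ± 0.85, adjusted p = 0.0109), with Con at 0.103, 0.0555 and 0.214 and DSS at 5.53, 14.1 and 11 CPM. Krt14 (-3.51) and the cornified envelope gene Lor (-3.07) were called in the same direction, 3 of 5 squamous genes tested (background 9.23%, median -3.32, -2.17 with the score). Squamous cells line the anal canal, and the summed level of the list was 4.88, 5.37 and 4.89 CPM in UA+DSS, 26, 12.7 and 38.4 in DSS+UA and 7.14, 5.38 and 4.17 in Con. Con 1, with the highest position score of all 12 libraries, was below every late library, and DSS was at 20.01, 62.5 and 21 CPM. Whether anal tissue was taken along in the late libraries was not tested. Among 16 stem cell and Wnt genes UA+DSS was higher in 1 (background 7.54%), Tnfrsf19 (2.25 ± 0.47, 0.0125). The stem cell gene Ascl2 was at 6.16, 6.06 and 4.94 against 11.2, 13.9 and 8.26 CPM without passing the test. The call of Krt13 held throughout, though it was too low to be tested with at least 10 counts in every sample. Those of Ly6a, Anxa1 and Tnfrsf19 were lost without UA+DSS 2 or DSS+UA 3 (adjusted p = 0.0523 to 0.0633). Msln, Krt14 and Lor each lost the call without 1 or more of the UA+DSS libraries or the DSS+UA libraries (adjusted p = 0.0517 to 0.117), and Msln and Krt14 also with 1 or more of limma-voom or no filter.

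Called genes for the attraction of neutrophils were higher with the late start. Of 8 genes of the CXCR2 axis DSS+UA was higher in 3 (background 9.23%). The median log2 fold change was -3.30 over the 8 and -1.75 with the score. The chemokine Cxcl5 was at 4.81, 0.375 and 10.5 CPM in UA+DSS against 54.1, 122 and 66 CPM in DSS+UA (log2 fold change -3.94 ± 1.02, adjusted p = 0.0276), with Con at 1.71, 0.388 and 0.107 and DSS at 67.6, 366 and 181 CPM. The receptor Cxcr2 was at 0.257, 0.5 and 1.17 against 10.4, 5.57 and 16.2 CPM (log2 fold change -4.01 ± 1.21, adjusted p = 0.0458). Cxcl1 was at 2.18, 0.375 and 3.24 against 6.58, 7.79 and 18.5 CPM (log2 fold change -2.49 ± 0.76, adjusted p = 0.0473). Each early library was below each late one for all 3, a separation that nearly all called genes had (2939 of 2961). Cxcl2, another ligand of the receptor, was at 0.834, 0.0625 and 4.25 against 54.8, 12.9 and 101 CPM and did not pass the test (adjusted p = 0.0866).

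Of 15 neutrophil genes only Ly6g was called (background 9.23%), at 14.8, 12 and 54.5 CPM in UA+DSS against 390.1, 274 and 311 CPM in DSS+UA (log2 fold change -3.58 ± 0.97, adjusted p = 0.0317). Con held 112, 8.26 and 11.6 CPM of Ly6g, the most in Con 1, and with the score its log2 fold change was 0.43. The calprotectin gene S100a9 was at 4.04, 8.25 and 25 against 262, 49.2 and 298 CPM (log2 fold change -4.03, adjusted p = 0.0633) and was near 0 in every Con library. The median over the 15 was -2.18, with 14 below 0, and DSS+UA was higher in 9 of them in the fit of the 6 libraries alone, in which DSS 2 played no part. That fit called 2271 of 16386 genes higher in DSS+UA. Summed over the list the early libraries held 559, 211 and 514 CPM and the late ones 1353, 1051 and 1287 CPM, so the groups did not overlap, while the count of calls ran from 0 to 9 when 1 library was left out, the most without DSS 2 and none without UA+DSS 1, UA+DSS 2 or any DSS+UA library.

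Of the other inflammatory lists few members were called, near or below the shares of all genes tested (9.23% higher in DSS+UA, 7.54% in UA+DSS). DSS+UA was higher in 2 of 21 CC chemokines and their receptors, 1 of 15 genes of the IL-6 family and 1 of 14 antimicrobial genes. UA+DSS was higher in 1 of 18 genes of IL-1 and TNF signalling. In the 6 libraries alone DSS+UA was higher in 4, 2, 2 and 7 members of these lists, and UA+DSS in 2 antimicrobial genes and 1 of IL-1 and TNF signalling. That fit called 2271 of 16386 genes higher in DSS+UA and 2013 higher in UA+DSS, more than the fit of the 12 libraries. The CC chemokine median was -0.49, and -0.56 with the score. Oncostatin M (Osm), a cytokine of the IL-6 family, was at 0.321, 0.312 and 0.904 against 7.32, 2.17 and 13.9 CPM (log2 fold change -3.88 ± 1.08, adjusted p = 0.0357). The lymph-node homing receptor Ccr7 was at 1.41, 1.81 and 0.798 against 16.6, 4.14 and 6.99 CPM (log2 fold change -2.79 ± 0.69, adjusted p = 0.0227). The monocyte attractant Ccl7 was at 5.58, 0.75 and 2.45 against 6.21, 13.1 and 14.9 CPM (log2 fold change -1.96 ± 0.61, adjusted p = 0.0479). In each of these 3 genes every early library was below every late one, but the groups were apart in 2939 of the 2961 called genes. The phospholipase gene Pla2g2a was at 7.57, 0.937 and 12.9 CPM in UA+DSS against 90.1, 61.4 and 61.2 CPM in DSS+UA (log2 fold change -3.31 ± 0.67, adjusted p = 0.0122), with all Con libraries between 7.19 and 8.66 CPM. In the other direction Il1r1, the signalling receptor of interleukin 1, was at 44.5, 44.5 and 44.5 against 29.9, 22.2 and 26.8 CPM (log2 fold change 0.76 ± 0.15, adjusted p = 0.0115). The lectin gene Reg3g was at 1579, 50.6 and 113 against 8.43, 2.04 and 32.3 CPM and was not called (adjusted p = 0.0551). Il1b was at 13, 2.12 and 10.5 against 68, 77.8 and 171 CPM, also without a call (adjusted p = 0.0648).

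The call of Pla2g2a held throughout. That of Il1r1 was lost without UA+DSS 2 (adjusted p = 0.051). Cxcl5, Cxcr2, Cxcl1, Ly6g, Osm, Ccr7 and Ccl7 each lost the call without 1 or more of the Con libraries, DSS 1, DSS 3, the UA+DSS libraries or the DSS+UA libraries (adjusted p = 0.0501 to 0.156), and all of them also with 1 or more of library size scaling, upper quartile scaling, limma-voom, no filter, the 6 libraries alone or the replicate block. With the fits that each left out 1 library, CXCR2 axis members higher in DSS+UA numbered 0 to 6, the most without DSS 2 and none without UA+DSS 1, UA+DSS 2 or any DSS+UA library.

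Of 18 genes of macrophages and monocytes, 18 of T cells, 12 inflammatory enzymes, 11 T helper cytokines and 16 MHC genes none was called in either direction by edgeR. At an unadjusted p under 0.05 there were 1, 1, 3, 1 and 0 of them, and DESeq2 called 1, 1, 0, 0 and 0. In the 6 libraries alone edgeR called 2 macrophage genes and 2 inflammatory enzymes, and without DSS 2 it called 1 and 2. The macrophage gene Cd68 was at 11.4, 7.93 and 7.55 CPM in UA+DSS against 12.3, 34.1 and 14.5 CPM in DSS+UA. Genes the study followed by other means were not called by edgeR over the 12 libraries either, with 2 of 6 at an unadjusted p under 0.05. Il6 was at 0.192, 0.0625 and 1.12 against 1.47, 0.371 and 6.65 CPM (log2 fold change -2.57 ± 1.08, adjusted p = 0.122). Tgfb1 was at 27.3, 14.8 and 21.1 against 36.6, 42.7 and 34 CPM (log2 fold change -0.84 ± 0.27, adjusted p = 0.0543). Ccr2 (-0.73 ± 0.40, 0.224), Csf1 (-0.17 ± 0.28, 0.711), Col1a1 (0.01 ± 0.60, 0.996) and Itga5 (0.04 ± 0.42, 0.953; log2 fold change with SE, then adjusted p) did not pass the test. DESeq2 called Il6 and Tgfb1, both higher in DSS+UA. Il6 was called with the replicate block, and Tgfb1 with no filter, in the 6 libraries alone and without DSS 2 or DSS 3.

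**Figure D3:**
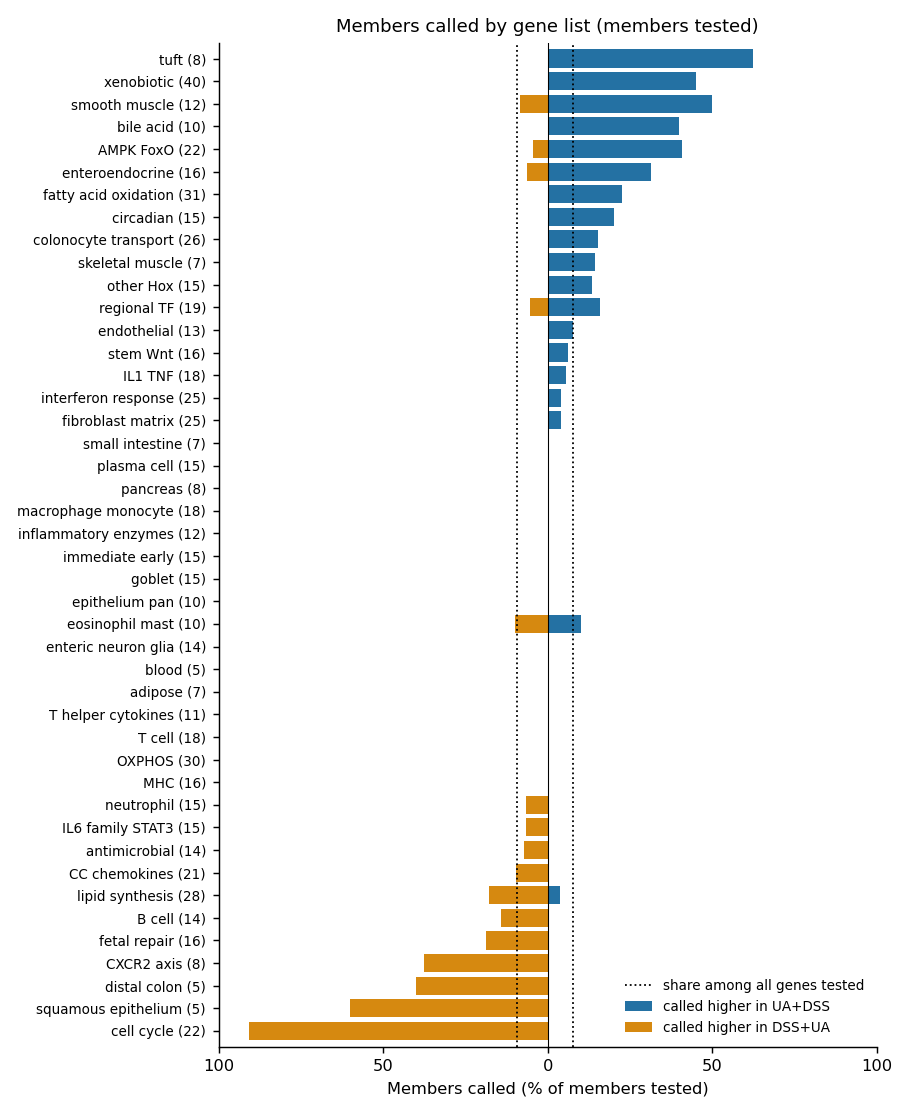
Share of the tested members of each gene list called higher in UA+DSS (right) or in DSS+UA (left), with the number tested in brackets. Dotted lines mark the shares among all genes, 7.54% and 9.23%. Lists of the score genes and of the genes the study followed are not shown. Among the lists shown, cell cycle genes lead on the left, with 20 of 22, and tuft cell genes on the right, with 5 of 8.

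Called genes of detoxifying enzymes and transporters were higher with the early start. UA+DSS was higher in 18 of 40 xenobiotic genes (background 7.54%) and DSS+UA in none, with a median log2 fold change of 1.28 that was 0.29 with the score. Leaving out 1 library left 6 to 21 members higher in UA+DSS, the fewest without UA+DSS 2. The carboxylesterase Ces1f was at 143, 185 and 98.4 CPM in UA+DSS against 6.48, 5.13 and 15.4 CPM in DSS+UA (log2 fold change 3.98 ± 0.60, adjusted p = 0.00739), with Con at 25.7, 126 and 78.9 CPM. Abcb1a, the drug efflux pump P-glycoprotein, was at 619, 1249 and 539.8 against 55.8, 131 and 88.5 CPM (log2 fold change 3.13 ± 0.56, adjusted p = 0.00826), with Con at 389, 879 and 612 and DSS at 90.1, 53.6 and 196 CPM. The cytochrome Cyp2c65 was at 372, 543 and 248 against 2.84, 4.27 and 14.8 CPM (log2 fold change 5.73 ± 1.36, adjusted p = 0.0209). Con 1, with the highest score, was the lowest Con library for all 3, and for Ces1f and Abcb1a it lay above every late library. The part of position in these values was not tested. The glucuronosyltransferase Ugt1a6a was at 8.53, 14.7 and 7.12 against 2.05, 1.11 and 0.554 CPM (log2 fold change 3.02 ± 0.49, adjusted p = 0.00748) and the Con libraries were close, at 9.21, 9.1 and 6.26 CPM. It shares exons with its neighbours, and 52.1% of its 50-base stretches occur in other genes. The list's median slope was -0.12. All Con libraries were on the UA+DSS side in 14 of its 40 members, against 38.8% of all genes tested. The order set by the Con scores was found in 15, against 21% of all genes tested.

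Transport of bile acids gave 4 of 10 genes higher in UA+DSS (background 7.54%), Slc51a among them. The median of the list was 0.85, and 0.60 with the score. Slc10a2, the apical sodium-dependent bile acid transporter, was at 119, 308 and 99.2 CPM in UA+DSS against 20.6, 8.23 and 19.2 CPM in DSS+UA (log2 fold change 3.45 ± 0.62, adjusted p = 0.00874), while Con held only 3.26, 6.99 and 4.6 CPM. The organic anion carriers Slco2b1 (1.32 ± 0.29, 0.0149) and Slco2a1 (0.87 ± 0.25, 0.0346) were called too, and Slc51b, the partner of Slc51a, was not, at 83.9, 70.1 and 39 against 29, 44.1 and 20.3 CPM. Of 26 genes of ion transport by colonocytes UA+DSS was higher in 4 (background 7.54%). That count was 0 without UA+DSS 2, DSS+UA 1 or DSS+UA 3 and 8 without DSS 2. The carbonic anhydrase Car1 was at 6524, 9357 and 4602 against 713, 685 and 878 CPM (log2 fold change 3.17 ± 0.75, adjusted p = 0.0198). The sodium/proton exchanger Slc9a2 was at 330.1, 466 and 345 against 52.3, 156 and 73.2 CPM (log2 fold change 2.02 ± 0.55, adjusted p = 0.0326). The sulfate carrier Slc26a2 was at 647, 619 and 737 against 242, 305 and 279.6 CPM (log2 fold change 1.28 ± 0.37, adjusted p = 0.0374). With the score the median of the ion transport list changed from 0.59 to -0.46.

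Genes of fat oxidation that were called were higher with the early start, and most called genes of fat synthesis were lower. Of 31 genes of fatty acid oxidation UA+DSS was higher in 7 (background 7.54%) and DSS+UA in none (median 0.55). The 7 became 2 to 11 when 1 library was left out, the fewest without UA+DSS 2, and 13 in the 6 libraries alone. The fit of the 6 libraries called 2013 of 16386 genes higher in UA+DSS. The 7 called over the 12 libraries held Ppara, the nuclear receptor that drives the pathway, at 20.3, 38.5 and 18.2 CPM against 1.001, 3.28 and 2.66 CPM (log2 fold change 3.47 ± 0.67, adjusted p = 0.0105). Pdk4, which shuts glucose out of oxidation, was at 18.2, 32.8 and 24.6 against 1.84, 0.804 and 1.22 CPM (log2 fold change 4.27 ± 0.88, adjusted p = 0.0128). Cpt1a, which carries fatty acids into mitochondria, was at 265, 339.6 and 323 against 143, 179.6 and 193 CPM (log2 fold change 0.85 ± 0.23, adjusted p = 0.0307). Con held 2.33, 13.1 and 11.2 CPM of Ppara, the least in Con 1, and with the score the median of the list was -0.05. Acadm, of medium-chain oxidation, was at 145, 219 and 179.6 against 93.9, 145 and 127 CPM and was not called.

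Of 28 genes of sterol and fatty acid synthesis DSS+UA was higher in 5 (background 9.23%) and UA+DSS in 1 (background 7.54%). A log2 fold change below 0 was found in 26 of 28 (median -0.76, -0.94 with the score, all but 1 with the same sign). Mvd, of the mevalonate pathway, was at 59.3, 23.1 and 45.7 against 91.5, 139 and 117 CPM (log2 fold change -1.44 ± 0.31, adjusted p = 0.014). The desaturase Scd1 was at 76.4, 25.2 and 31.1 against 153, 103 and 140.5 CPM (log2 fold change -1.58 ± 0.41, adjusted p = 0.0268). Acacb, whose product restrains Cpt1a, was the exception, at 43.5, 41.3 and 33.7 against 7.48, 8.41 and 6.93 CPM (log2 fold change 2.38 ± 0.44, adjusted p = 0.00874). The calls of Ces1f, Abcb1a, Ugt1a6a, Slc10a2, Ppara, Mvd and Acacb held throughout. That of Pdk4 was lost without UA+DSS 2 or DSS+UA 3 (adjusted p = 0.0512 to 0.0564). Cyp2c65, Slco2b1, Slco2a1, Car1, Slc9a2, Slc26a2, Cpt1a and Scd1 each lost the call without 1 or more of Con 3, DSS 1, the UA+DSS libraries or the DSS+UA libraries (adjusted p = 0.0503 to 0.121), and Cyp2c65, Car1 and Slc9a2 also with no filter. With the position score Cyp2c65 turned negative (-1.04).

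Of 22 genes of insulin signalling, AMPK and FoxO 9 were called higher with the early start (background 7.54%). The median was 0.70, and 0.29 with the score. Insr, the insulin receptor, was at 97.2, 145 and 113 CPM in UA+DSS against 43, 37.3 and 45.6 CPM in DSS+UA (log2 fold change 1.5 ± 0.18, adjusted p = 0.00525). Con held 126, 119 and 114 CPM and DSS 52, 65.2 and 72.6 CPM, so early libraries lay near Con and late ones below both. Pck1, the first committed enzyme of gluconeogenesis, was at 118, 198 and 150.5 against 17.7, 44.1 and 27 CPM (log2 fold change 2.40 ± 0.40, adjusted p = 0.0077), with Con at 166, 150.3 and 161 and DSS at 18.2, 45.8 and 49.7 CPM. In both genes Con 1 was not below the other Con libraries, and with the score the log2 fold changes were 1.44 and 2.12. The part of position was not tested here either. The AMPK subunits Prkag2 (1.06 ± 0.20, 0.00865) and Prkaa1 (1.06 ± 0.30, 0.0341; log2 fold change with SE, then adjusted p) were called, and Prkaa2, at 205, 200.4 and 179 against 76.6, 79.3 and 87.2 CPM, was not. The insulin receptor substrate Irs2 (1.61) and the transcription factor Foxo3 (1.03), were called higher in UA+DSS, and the AMPK subunit Prkag1 (-0.87 ± 0.20, 0.0172) was the 1 gene higher in DSS+UA. These 3 were named after their values were seen. The calls of Insr, Pck1 and Prkag2 held throughout. Those of Irs2 and Prkag1 were lost without UA+DSS 2 or DSS+UA 3 (adjusted p = 0.0525 to 0.0756). Prkaa1 and Foxo3 each lost the call without 1 or more of the UA+DSS libraries or the DSS+UA libraries (adjusted p = 0.0531 to 0.132). With the position score Prkaa1 turned negative (-0.39) and Foxo3 was near 0. Over these fits 3 to 12 members were higher in UA+DSS, the fewest without UA+DSS 2.

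Called genes of tuft and enteroendocrine cells, rare sensory cells of the epithelium, were mostly higher with the early start. UA+DSS was higher in 5 of 8 tuft cell genes (background 7.54%). Their median was 0.98, and 0.07 with the score, with a median slope of -0.11. Trpm5, the taste channel of tuft cells, was at 7.76, 7.81 and 7.18 CPM in UA+DSS against 0.421, 0.495 and 1.05 CPM in DSS+UA (log2 fold change 3.51 ± 0.53, adjusted p = 0.00644), with Con at 4.29, 18.5 and 13.2 and DSS at 1.4, 1.7 and 1.21 CPM. Rgs13 was at 5.58, 5.81 and 4.998 against 0.421, 0 and 0.277 CPM (log2 fold change 4.47 ± 0.84, adjusted p = 0.00954). Pou2f3, the master factor of the lineage, had 81 counts over UA+DSS and 2 over DSS+UA, a ratio of 42.7 (95% interval 11.5 to 359, counting error only), with an adjusted p of 0.00811. Dclk1 was at 18.3, 13.4 and 20.3 against 10.1, 6.74 and 7.04 CPM (log2 fold change 1.12 ± 0.35, adjusted p = 0.0497). Trpm5 was at most 1.05 CPM in the late libraries and at least 4.29 CPM in Con, and Rgs13 at most 0.421 and at least 5.38 CPM.

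UA+DSS was higher in 5 of 16 enteroendocrine genes (background 7.54%) and DSS+UA in 1 (background 9.23%). The median was 0.69, and 0.51 with the score. Tph1, which makes serotonin in enterochromaffin cells, was at 45.5, 38.5 and 28 against 13.4, 14.7 and 6.21 CPM (log2 fold change 1.71 ± 0.35, adjusted p = 0.0122). The chromogranin gene Chga, of secretory granules, was at 98, 185 and 103 against 60.7, 60.6 and 52.7 CPM (log2 fold change 1.15 ± 0.27, adjusted p = 0.018), and Chgb had a log2 fold change of 1.01. The prohormone convertase Pcsk1 was at 30.9, 40.5 and 26.1 against 6.85, 5.94 and 4.93 CPM (log2 fold change 2.46 ± 0.52, adjusted p = 0.0133). Pyy, a peptide of the distal bowel, was at 59.3, 48.3 and 42.2 against 141, 188 and 177 CPM and was not called (adjusted p = 0.0563). The 1 higher in DSS+UA was Neurog3, the factor that starts the enteroendocrine lineage, at 0.962, 1.12 and 3.51 against 7.9, 4.76 and 7.37 CPM (log2 fold change -1.83 ± 0.56, adjusted p = 0.045; named after its values were seen). Of 15 goblet cell genes edgeR called none over the 12 libraries, with 4 at an unadjusted p under 0.05, and 12 had a log2 fold change above 0 (median 0.61, 0.35 with the score). Goblet cell genes called numbered 2 by DESeq2, 1 by limma-voom, 7 in the 6 libraries alone and 4 without DSS 2, all higher in UA+DSS. Over all genes those fits called 2038 of 17658, 1286 of 17658, 2013 of 16386 and 1578 of 18126 higher in UA+DSS. The gel-forming mucin Muc2 was at 3155, 4384 and 4134 against 975, 937 and 662 CPM (adjusted p = 0.0873), with 741, 6633 and 5869 CPM in Con, the least in Con 1. The calls of Trpm5, Rgs13 and Pou2f3 held throughout, though all were too low to be tested with at least 10 counts in every sample. Those of Tph1, Chga, Chgb and Pcsk1 were lost without UA+DSS 2 or DSS+UA 3 (adjusted p = 0.0512 to 0.0752). Dclk1 and Neurog3 each lost the call without 1 or more of Con 2, Con 3, DSS 1, DSS 3, the UA+DSS libraries or the DSS+UA libraries (adjusted p = 0.0512 to 0.16), and all of them also with 1 or more of library size scaling, limma-voom, no filter or the replicate block. With the position score Dclk1 (-0.27) and Pcsk1 (-0.15) turned negative, and Trpm5 was at 1.57.

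Interferon-stimulated genes and B cell genes had differences between the groups in the direction of their position slopes, and few were called by edgeR over the 12 libraries. Of 25 interferon genes 22 had a log2 fold change above 0 (median 1.25), but only Rsad2 (viperin) was called (background 7.54%). Rsad2 was at 25.1, 75.2 and 26.9 CPM in UA+DSS against 2.11, 6.5 and 4.16 CPM in DSS+UA (log2 fold change 3.32 ± 1.01, adjusted p = 0.0472). The Con libraries held 2.74, 59.2 and 39.2 CPM. Ifit1 was at 84.4, 288 and 94 against 8.79, 15.3 and 28.4 CPM, with Con at 10.6, 222 and 133 CPM, and was not called (adjusted p = 0.0635). In 22 of the 25 genes Con 1 lay on the DSS+UA side and Con 2 and Con 3 on the UA+DSS side, against 21% of all genes tested. The median slope was -0.23, and with the score the median log2 fold change was -1.01, with 4 of 25 keeping their sign. UA+DSS was higher in 14 of the 25 in the fit of the 6 libraries alone, in 12 by DESeq2 and in 11 without Con 1. Over all genes those fits called 2013 of 16386, 2038 of 17658 and 1770 of 18109 higher in UA+DSS.

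Interferon acts through the interferon-stimulated response element, 2 copies of GAAA with 2 bases between them, bound by STAT and IRF factors. The last 150 bases before the start of 3 genes of the list, from RefSeq on GRCm38.p6 and read 5′ to 3′ on the strand of the gene, are shown with this motif on either strand in capitals (GAAA reads TTTC on the other strand). Isg15 was named after its values were seen.
Rsad2, chr12:26456453-26456602, reverse strand: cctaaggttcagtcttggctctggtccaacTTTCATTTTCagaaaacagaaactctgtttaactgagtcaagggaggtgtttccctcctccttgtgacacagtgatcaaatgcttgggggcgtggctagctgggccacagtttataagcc
Ifit1, chr19:34640739-34640888, forward strand: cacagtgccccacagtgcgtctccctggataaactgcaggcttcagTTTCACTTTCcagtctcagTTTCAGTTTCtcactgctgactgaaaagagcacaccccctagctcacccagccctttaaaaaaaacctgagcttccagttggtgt
Isg15, chr4:156200819-156200968, reverse strand: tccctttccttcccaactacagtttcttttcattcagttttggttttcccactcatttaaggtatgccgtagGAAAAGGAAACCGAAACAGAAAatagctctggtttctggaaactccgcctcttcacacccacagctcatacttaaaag

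Ifit1 had the element at 2 places and Isg15 a run of 3 overlapping ones. Of 20 promoters found for 18 of the 25 interferon genes 60% held the motif within 300 bases, against 3.21% of all 15709. Among promoters of genes called higher in UA+DSS it was 3.15%, and among those higher in DSS+UA 2.83%. Isg15 itself was at 63.9, 174 and 68.6 against 16.9, 34.5 and 30.9 CPM, with Con at 12.3, 212 and 139 CPM.

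B cell genes went the other way. All 14 tested had a log2 fold change below 0 (median -2.77) and DSS+UA was higher in 2 (background 9.23%). It was higher in 13 by DESeq2, in 12 in the 6 libraries alone, in 12 without Con 1 and in 8 with the replicate block, but in none with library size or upper quartile scaling, by limma-voom or with no filter. The antigen receptor subunit Cd79a was at 12.3, 7.18 and 8.24 CPM in UA+DSS against 61, 19.1 and 40.1 CPM in DSS+UA (log2 fold change -2.12 ± 0.64, adjusted p = 0.0453), with Con at 23.8, 7.43 and 10.4 CPM. Cd79b was at 8.02, 4.94 and 5.48 against 44.1, 18 and 24.6 CPM (log2 fold change -2.23 ± 0.67, adjusted p = 0.0448). In 13 of 14 Con 1 lay on the DSS+UA side and the other Con libraries on the UA+DSS side, the median slope was 0.42, and with the score the median log2 fold change was 1.42. B cells of the colon sit mostly in lymphoid follicles, which a piece of tissue may or may not hold, and whether follicles were taken along was not tested. Of 15 plasma cell genes edgeR called none over the 12 libraries, with 3 at an unadjusted p under 0.05, against 2 by DESeq2, 1 by limma-voom and 2 in the 6 libraries alone. Rsad2, Cd79a and Cd79b each lost the call without 1 or more of Con 2, Con 3, DSS 2, the UA+DSS libraries or the DSS+UA libraries (adjusted p = 0.0506 to 0.162), and all of them also with 1 or more of library size scaling, upper quartile scaling, limma-voom, no filter or the replicate block.

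**Figure D4:**
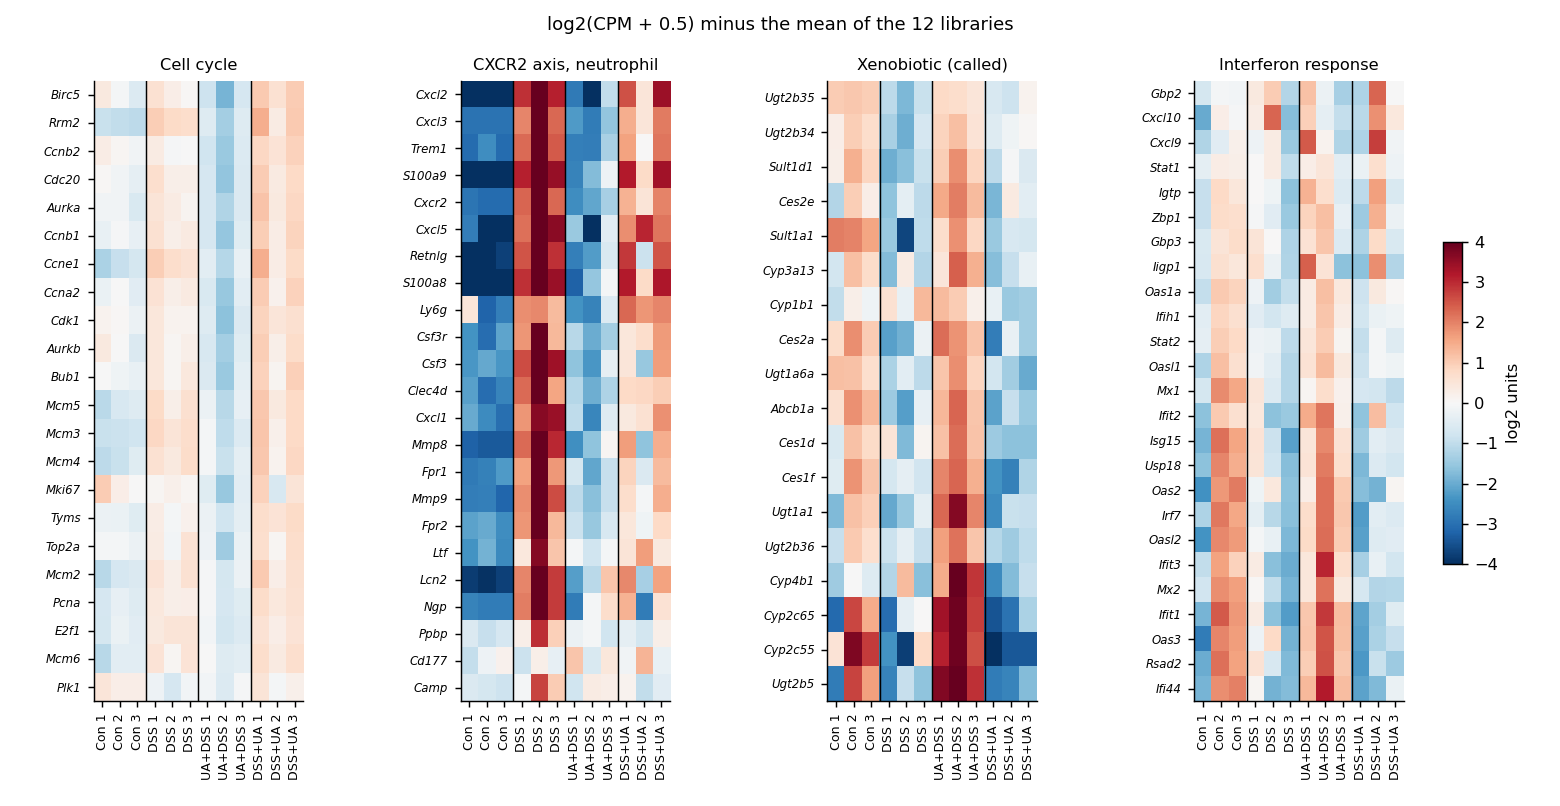
Levels by library, as log2(CPM + 0.5) minus the mean of the 12 libraries, for cell cycle, CXCR2 axis and neutrophil, called xenobiotic and interferon genes. Con 1 resembles DSS+UA in the interferon genes and in most of the xenobiotic genes, while for most cell cycle and neutrophil genes the 3 Con libraries lie close together.

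Smooth muscle genes were called mostly higher with the early start. Of 12 smooth muscle genes UA+DSS was higher in 6 (background 7.54%) and DSS+UA in 1 (background 9.23%), Ano1. The median was 1.68, and 0.95 with the score. The smooth muscle myosin Myh11 was at 587, 441 and 665 CPM in UA+DSS against 140.2, 135 and 102 CPM in DSS+UA (log2 fold change 2.17 ± 0.50, adjusted p = 0.0178). Its kinase Mylk was at 298, 255 and 295 against 107, 74.7 and 82.3 CPM (log2 fold change 1.69 ± 0.37, adjusted p = 0.0145). Con held 326, 269.8 and 969 CPM of Myh11, with Con 3 apart from the other two. Kit, of interstitial cells of Cajal and mast cells, was at 87.2, 124 and 92 against 19.5, 18.9 and 15.6 CPM (log2 fold change 2.49 ± 0.35, adjusted p = 0.00591), and of 10 eosinophil and mast cell genes it was the 1 higher in UA+DSS. The mast cell chymase Cma1 was the 1 higher in DSS+UA, at 0.128, 0.125 and 0.0532 against 20.9, 9.34 and 12.4 CPM (log2 fold change -7.06 ± 1.89, adjusted p = 0.0309). Ano1, the chloride channel of the pacemaker cells and of epithelium, was at 56.5, 44.2 and 67.5 against 73.5, 139.9 and 123 CPM (log2 fold change -1.0 ± 0.23, adjusted p = 0.0177). How much muscle coat each tissue piece held was not given in the sources used here, and its part in these values was not tested.

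Of 13 endothelial genes Vwf alone was called, at 35, 28.5 and 27.4 against 16.1, 15.2 and 18.6 CPM (log2 fold change 0.87 ± 0.16, adjusted p = 0.0085), and of 25 fibroblast and matrix genes Fap alone (1.41 ± 0.36, 0.0256). Both genes were higher in UA+DSS, as were 7.54% of all genes tested. Circadian genes were called in 3 of 15, all higher in UA+DSS (background 7.54%, median 0.46, 0.80 with the score). With log2 fold change and SE, then adjusted p, they were Cry2 (1.09 ± 0.25, 0.0179), Nr1d2 (1.06 ± 0.26, 0.0227) and Nr1d1 (1.06 ± 0.32, 0.0437). The hour of sampling was not given in the sources used here. General epithelial genes were present in all 6 libraries, at a summed 16738, 17423 and 18737 CPM in UA+DSS against 17267, 27526 and 21025 CPM in DSS+UA, and of 10 edgeR called none (1 at an unadjusted p under 0.05), against 1 each by DESeq2, limma-voom and in the 6 libraries alone. Among 14 genes of enteric neurons and glia, 15 immediate early genes, 7 of fat tissue, 8 of pancreas, 7 of small intestine and 5 of blood edgeR called none over the 12 libraries. At an unadjusted p under 0.05 there were 1, 3, 3, 0, 0 and 0, and DESeq2 called 1 immediate early and 2 fat tissue genes and none of the rest. In the 6 libraries alone 5 immediate early genes and 1 of fat tissue were called. Of 7 skeletal muscle genes Ckm alone was called (2.05 ± 0.48, 0.0184; named after its values were seen). None of 30 subunits of oxidative phosphorylation was called by edgeR either, with 1 at an unadjusted p under 0.05 and 0 called by DESeq2 and 1 in the 6 libraries alone. The calls of Kit and Vwf held throughout. Those of Myh11 and Mylk were lost without UA+DSS 2 or DSS+UA 3 (adjusted p = 0.0506 to 0.0729). Cma1, Ano1, Fap, Ckm, Cry2, Nr1d2 and Nr1d1 each lost the call without 1 or more of Con 3, DSS 1, DSS 3, the UA+DSS libraries or the DSS+UA libraries (adjusted p = 0.0522 to 0.175), and Cma1 and Nr1d1 also with 1 or more of no filter, the 6 libraries alone or the replicate block. Once the position score was added, Cma1 had a log2 fold change of 1.3 and Kit of 0.86.

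**Figure D5:**
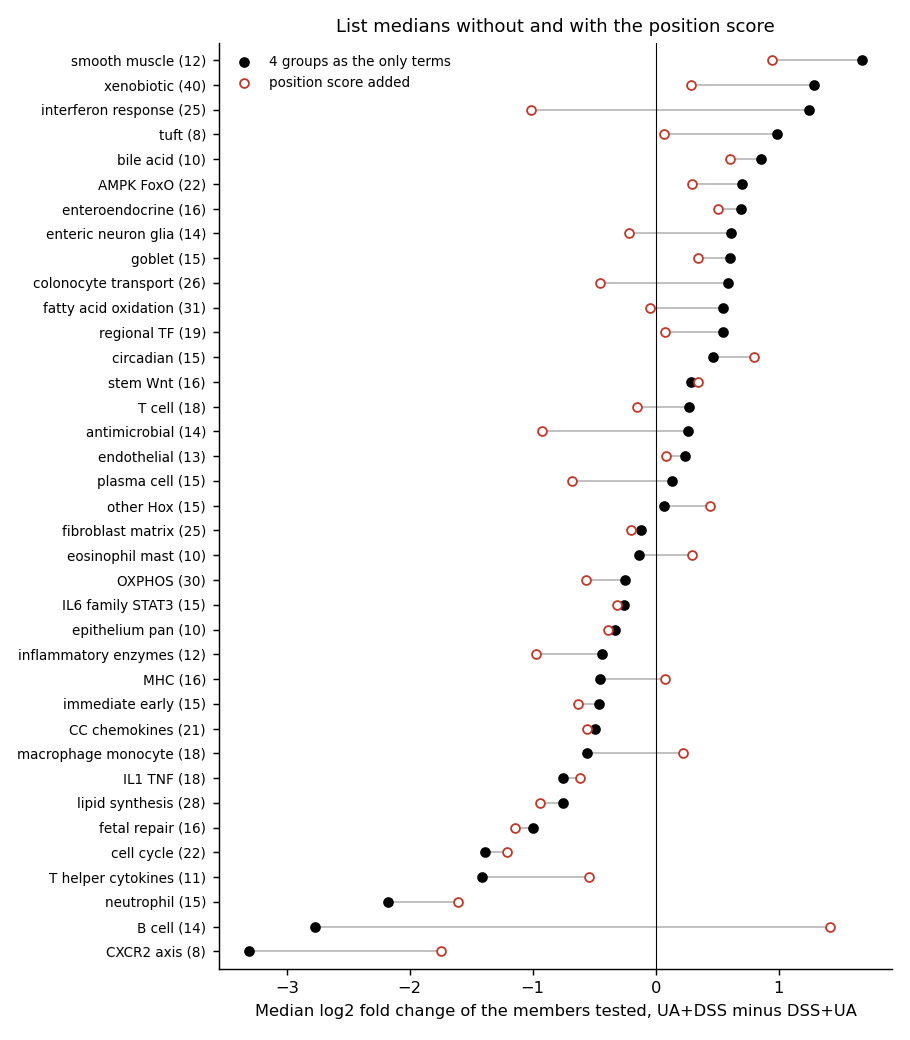
Median log2 fold change of the tested members of each list of at least 8 members except pancreas, with the 4 groups as the only terms (filled) and with the position score added (open). The medians of the interferon and B cell lists change sign, while those of the cell cycle (-1.39 and -1.21), lipid synthesis (-0.76 and -0.94) and fetal repair lists move little.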

How the data were processed

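Colon RNA of 12 mice was sequenced (total RNA, TruSeq libraries, Illumina HiSeq). The authors deposited 1 file of whole read counts per gene for each library, on GRCm38 per the labels, with HISAT2, FastQC and Cuffdiff named in the submitters' processing notes. The study credits the read counts to HISAT2. The annotation release and the use of strand in counting were not given in the sources used here. Nothing says whether mice of a group shared a cage or a day of extraction. The p-values therefore cannot tell the timing of UA from conditions that the mice of a group may have shared. In the main fit they rest on a spread estimated over all 12 libraries, Con and DSS included, not on UA+DSS and DSS+UA alone.

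Genes passing filterByExpr (17658, with 99.8% of counts) were scaled by TMM and fitted over all 4 groups with the robust quasi-likelihood test of edgeR 4.0.16 in R 4.3.3, with Benjamini-Hochberg adjustment. CPM values use the TMM-scaled library sizes. Rows without a gene name (37, with 0.003644% of counts) were not removed before the filter and were passed over only in choosing genes to name. The position score was added as a covariate in a second fit, and per-gene position slopes (log2 CPM, prior count 2) used Con and DSS only. The method was tested on simulated counts with known changes. Alternatives were library size, upper quartile and relative log expression scaling, DESeq2 1.42.0, limma-voom (limma 3.58.1), no filter, at least 10 counts in every sample, the 6 libraries alone, the replicate number as a block and leaving out each library. Coordinates are from GENCODE M21 (GRCm38) and promoters from RefSeq (GRCm38.p6).

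The comparison, the gene lists and the position genes were chosen with earlier results of these data known. Genes are named by rule: the position genes, the 10 called genes most different each way where log2 CPM averaged 1 or more and the groups did not overlap, up to 3 genes of smallest p and the first 4 of each list, and the genes the study followed by other means. Genes outside the rule are marked as named after their values were seen. A few genes that the rule names are not reported here.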

Additional observations from a re-analysis of the deposited data

How the results depend on the processing

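Adding the position score left 0 genes called between UA+DSS and DSS+UA, 0 of them on the lists. That count was 0 or 1 (the 1 without DSS 2) when a library was also left out. Genes at an unadjusted p under 0.05 with the score were less stable, at 2250 over all libraries and 171 without Con 1. Without 1 library the count of 2961 ran from 560 without UA+DSS 2 to 3893 without Con 1. It was 1442 without UA+DSS 1, 1656 without UA+DSS 3, 1700 without DSS+UA 1 and 931 without DSS+UA 3. Of the 2961 calls, 557 remained without UA+DSS 2 and 924 without DSS+UA 3. A 2-fold minimum left 1582. The other alternatives gave 2134 (no filter) to 4349 (DESeq2) and 4284 in the 6 libraries alone. The share higher in UA+DSS was 45%, 53.5% with library size scaling and 51.9% with upper quartile scaling. List members called numbered 213 by DESeq2 and 244 in the 6 libraries alone, and 43 to 181 without 1 library. The score difference ran from -9.84 to -9.07, and the genes with a position slope of the sign of their difference numbered 2149 to 2397. Deviations of same-numbered libraries from their group means had correlations of -0.089, 0.041 and 0.172, against -0.24 to 0.19 for the other pairs. These values gave no sign of pairing by number, but with 3 libraries per group they cannot exclude it. The fit with the replicate number as a block called 2998.

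With the position score the log2 fold change had the other sign for Hoxd10 (8.41), Hoxd11 (8.27), Hoxd12 (0.91), Abca12 (-3.68), Ugt2b5 (-2.12), Nts (-1.92), Gm36640 (-4.87), Slc51a (-0.89), H2-T3 (-1.45), Malrd1 (-1.91), AI854703 (1.14), Fxyd4 (0.92), Cdx2 (-1.41), Cxcl2 (2.82), Ly6g (0.43), Reg3g (-0.52), Rsad2 (-0.69), Ifit1 (-0.63), Cd79b (0.296), Cma1 (1.3), Muc2 (-1.32), Pcsk1 (-0.15), Pyy (0.196), Dclk1 (-0.27), Ascl2 (0.0532), Prkaa1 (-0.39), Prkaa2 (-0.33), Cyp2c65 (-1.04), Slc51b (-0.41), Csf1 (0.304), Itga5 (-0.29), Foxo3 (-0.00518) and Isg15 (-1.69). Uncalled genes near 0 also changed sign: Col1a1 with no filter (-0.0202), by limma-voom (-0.24), in the 6 libraries alone (-0.00431) and with the replicate block (-0.18), and Itga5 by limma-voom (-0.13) and with the block (-0.0353). Without 1 library Col1a1 ran from -0.49 to 0.44 and Itga5 from -0.42 to 0.42. Hoxd10, Hoxd11 and Hoxd12 are themselves genes of the score, so their values with the score are not independent of it. The cause of the other changes was not tested. Simulated recovery was 7% at a log2 fold change of 1, with only 200 genes changed. With 3 libraries per group, genes not called may still differ.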
